A study of Mus musculus with 11 samples.

Results

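The genes described here code for the proteins of the cytosolic ribosome. They were taken by name, as every probe of the array whose target begins with RPL (large subunit) or RPS (small subunit) and a digit. S6 kinase genes, names marked as pseudogenes and 1 further gene of the family that is not reported here were left out. The rule found 76 of the 25697 probes, which belong to 59 gene names: 44 probes and 32 names for the large subunit, 32 probes and 27 names for the small subunit. The animals were naive mice aged 8 to 12 weeks, and total RNA of the terminal ileum was amplified and hybridised to Illumina bead arrays, 1 array per mouse. SKG mice (replicates 4 to 8, all in batch 3) are known to carry, on a BALB/c background, a mutated Zap70, which relays signals from the T cell receptor. The controls were BALB/c mice without it, replicates 1 and 2 in batch 2 and replicate 3 in batch 3. The 3 SKG arrays of batch 1 were not used, because their signals had rank correlations of only 0.0768 to 0.0966 with the other 8 arrays, which correlated among each other at 0.838 to 0.947.

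A ribosome joins a small subunit, which holds the mRNA and reads its codons, with a large subunit, which forms the peptide bonds. The proteins of a subunit are needed in equal numbers, and their genes are known to be expressed together and strongly in every growing cell, including the rapidly renewed epithelium of the small intestine. Their mRNAs begin with a C followed by a run of C and T, the terminal oligopyrimidine tract, through which the mTOR pathway sets their translation.

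The starts of 6 of these genes are shown because their array values make up the main patterns below. Rpl7a, Rps7 and Rps6 were low in one SKG animal, while the brightest probes of Rpl38, Rps24 and Rpl23 were not, and were low in the BALBc animals of batch 2. Rpl7a and Rps6 were low in batch 2 as well. Rpl7a had normalised log2 signals of 10.80 and 10.56 there and 12.29 in BALBc replicate 3. Rps6 had 11.56 and 11.66 there and 12.42 in BALBc replicate 3. Each line runs 5′ to 3′ from 60 bases before the annotated RefSeq start to 15 bases after it (build GRCm38.p6). The capitals mark the longest run of C and T that touches the 5 bases on either side of the start.
Rpl7a (chr2:26910747-26910821, + strand): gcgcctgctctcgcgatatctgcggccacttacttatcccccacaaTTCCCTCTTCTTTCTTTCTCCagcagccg
Rps7 (chr12:28635939-28636013, - strand): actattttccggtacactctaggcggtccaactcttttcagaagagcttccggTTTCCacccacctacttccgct
Rps6 (chr4:86857353-86857427, - strand): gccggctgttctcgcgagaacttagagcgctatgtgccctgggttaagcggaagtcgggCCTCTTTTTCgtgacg
Rpl38 (chr11:114668520-114668594, + strand): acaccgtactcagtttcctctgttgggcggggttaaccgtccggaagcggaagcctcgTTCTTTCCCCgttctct
Rps24 (chr14:24490618-24490692, + strand): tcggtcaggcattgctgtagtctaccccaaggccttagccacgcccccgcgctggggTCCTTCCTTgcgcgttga
Rpl23 (chr11:97782425-97782499, - strand): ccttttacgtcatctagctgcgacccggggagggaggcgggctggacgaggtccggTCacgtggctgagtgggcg
The run was 21 bases long in Rpl7a, 10 in Rps6 and Rpl38, 9 in Rps24, 5 in Rps7 and 2 in Rpl23. With the annotated first base as 1, it lay at −7 to −3 in Rps7 and at −4 to −3 in Rpl23. In these genes it was thus wholly before the annotated start and outside the annotated mRNA. In the others it spanned the start, from −14 to 7 in Rpl7a. A run of at least 7 bases was found in 19 of the 42 member promoters in the RefSeq table (45.2%) and in 13.5% of its 27025 promoters, taking the outermost start of each gene. The letters CGGAAG, the core of the ETS factor motif, lay on either strand of 73.8% of the member promoters (250 bases before to 50 after the start) and of 17.2% of all promoters. ATGGCG, the core of the YY1 motif, was found in 28.6% against 9.25%, and TATAAA in 11.9% against 14.2%. These are matches of letters only. In the large subunit 16 of 23 promoters held CGGAAG and in the small subunit 15 of 19.

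Signals were corrected for background, normalised by quantiles and expressed as log2 values. A probe was kept where it was above background (detection p under 0.05) on at least 3 of the 8 arrays. Of the 76 member probes 64 were kept, for 53 genes: 27 of the large subunit, 25 of the small subunit, and Rps19bp1, which the name rule took in but which codes for a regulator of the deacetylase SIRT1 and no ribosomal protein. The 52 genes of the subunits, called ribosomal protein genes below, include 4 paralogs: Rpl22l1, Rpl36al, Rpl7l1 and Rps27l. The brightest kept probe stands for a gene. The 12 probes that were not kept included the only probes of Rpl6, Rpl14, Rpl17 and Rps23. Those of Rpl6, Rpl17 and Rps23 were not above background on any array, and that of Rpl14 was so on BALBc replicates 1 and 2 alone. The paralogs Rpl39l and Rpl3l were not kept either: Rpl39l was above background on no array and Rpl3l on 2 SKG arrays. Processed pseudogenes of this family share much sequence with their source genes, so a probe may also bind their transcripts. The error of a mean over the beads of 1 probe on 1 array was 0.0551 (median over the 52 ribosomal protein genes, log2), while the SD over the 5 SKG arrays was 0.20.

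The first comparison asked whether ribosomal protein transcripts differed between SKG and BALBc ileum. No member passed in either direction (limma with batch as a random block, Benjamini-Hochberg adjusted p under 0.05). Of all 13775 kept probes 84 passed, or 0.61%, so a count of 0 among 64 probes is near the background. At an unadjusted p under 0.05 there were 3 member probes, all lower in SKG, against 13.4% of all kept probes in either direction and 5.87% in that one. With quantile normalisation the 95% interval of the difference lay within 1 log2 unit (2-fold) of 0 in 39 of the 52 genes. In 11 genes it reached 1 unit lower, and in 2 it reached 1 unit higher. With the 75th percentile scaling described below, 32 lay within that bound, 3 reached 1 unit lower and 17 reached 1 unit higher. Standard errors with quantiles ran from 0.21 to 0.61, with a median of 0.26. The interval left out 0 in 2 genes with quantiles, Rpl29 and Rps3a1, and in 0 genes with the 75th percentile. These intervals are not adjusted for the number of probes. The number of animals limits this precision, and a true difference of any size inside a gene's interval remains compatible with its data.

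The direction of the whole family depended on how the arrays were scaled. With quantile normalisation 39 of the 52 genes were lower in SKG and 13 higher, with a median difference of −0.16 (interquartile range −0.41 to −0.001), while the median of all kept probes was 0.01. When each array was instead divided by its 75th percentile, 15 were lower and 37 higher, and the median was 0.20 against 0.165 for all kept probes. The second scaling raised the median difference of the family by 0.35 and that of all kept probes by 0.137. Relative to all probes the family was thus at −0.17 under the first scaling and at 0.036 under the second. Most members were bright: in BALBc replicate 3 the median raw signal was 6180 for members and 103.7 for all probes. Probes of like brightness were not compared, so whether the change with scaling follows brightness was not tested. No member passed under the second scaling either, with 1.07% of all kept probes called, and none had an unadjusted p under 0.05 (14.9% of all kept probes). Without SKG replicate 6 the family's median was −0.115 with quantiles and 0.133 with the 75th percentile, and again no member passed (6.35% and 11% of all kept probes).

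Both subunits gave like values. With quantile normalisation the median difference was −0.17 for the 27 large subunit genes and −0.15 for the 25 small subunit genes, with 21 and 18 genes lower in SKG. Under 75th percentile scaling the medians were 0.20 and 0.18, with 8 and 7 genes lower. The gap between the subunits, −0.016 and 0.019, changed sign with the scaling and was smaller than the SD of that gap over the 5 SKG animals (0.078). Within batch 3, which holds the 5 SKG animals and 1 BALBc animal, the medians were −0.21 in both subunits with quantiles, and 0.028 and 0.044 with the 75th percentile. The medians of all kept probes were 0.018 and 0.124 there. Relative to all kept probes the large and small subunits were thus at −0.231 and −0.228 with quantiles. With the 75th percentile they were at −0.096 and −0.08, so both were lower under either scaling.

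**Figure D1:**
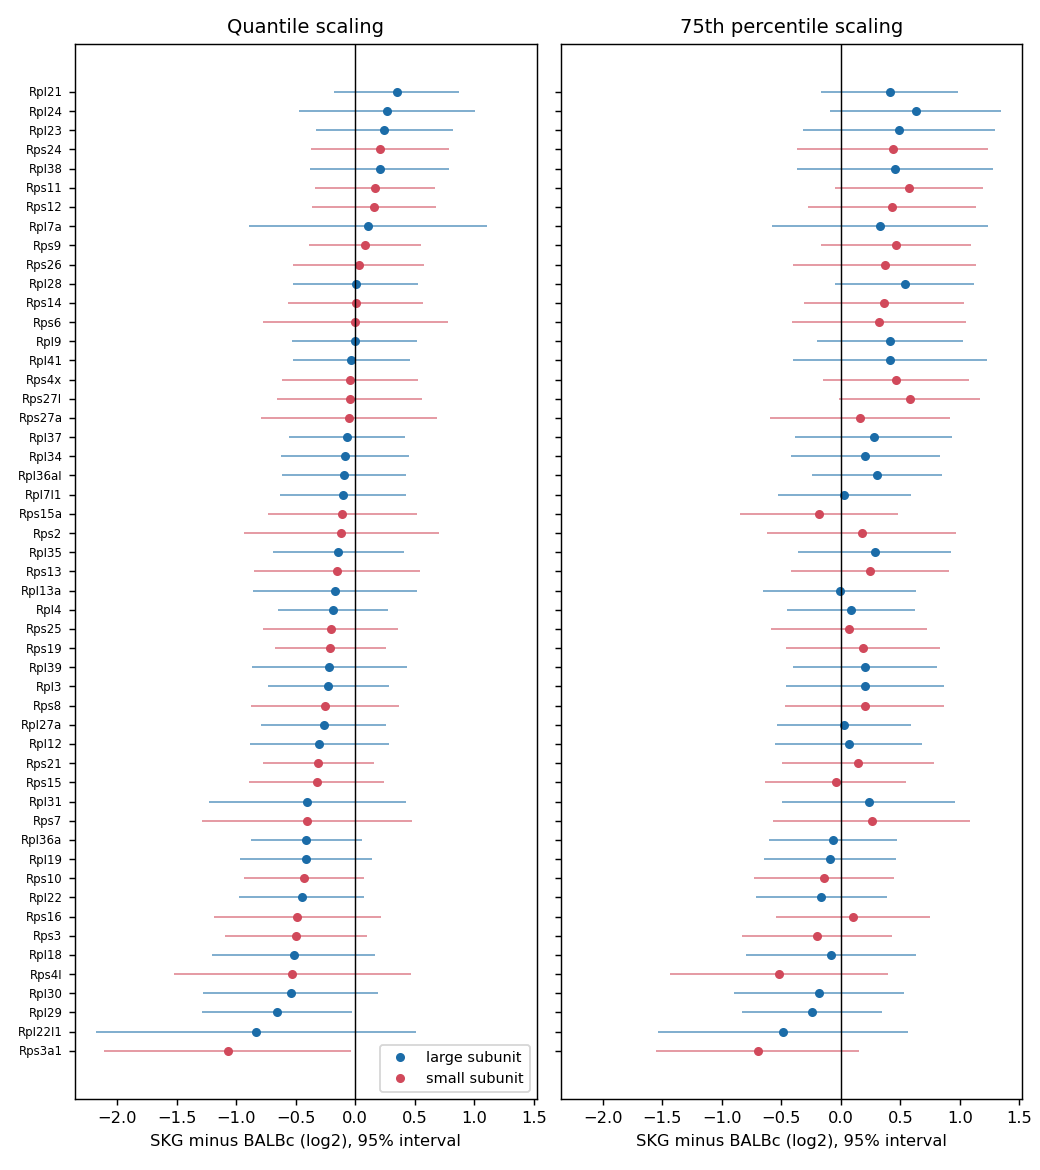
Difference between SKG and BALBc (log2, horizontal axis) with its 95% interval for 51 of the 52 ribosomal protein genes, in blue for the large and red for the small subunit, under quantile scaling (left) and 75th percentile scaling (right). Most points lie left of 0 in the left panel (38 of 51) and right of 0 in the right panel (37 of 51), and blue and red points are mixed in both.

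The genes with the lowest differences were small and large subunit members alike. Rps3a1, a small subunit protein, had normalised log2 signals of 7.65, 8.06, 8.45, 8.20 and 8.05 in SKG replicates 4 to 8 and of 10.96, 11.27 and 8.47 in BALBc replicates 1 to 3. All SKG values lay below all BALBc values, but BALBc replicate 3 (8.47) lay just above SKG replicate 6 (8.45) and far below the other BALBc animals. The fitted difference was −1.07 (SE 0.47, limma adjusted p = 0.357), and within batch 3 it was −0.39. Rpl29, a large subunit protein that also binds heparin, had 9.71, 9.42, 9.62, 9.51 and 9.58 in SKG and 11.09, 11.30 and 9.89 in BALBc. Its groups did not overlap, with a difference of −0.65 (SE 0.29, adjusted p = 0.354) and of −0.32 within batch 3. Rpl30 differed by −0.54 (SE 0.33) and Rps4l, a relative of Rps4x that the array lists under an older name, by −0.53 (SE 0.45). Rpl30 was at −0.21 within batch 3, at −0.18 with the 75th percentile, at −0.27 without SKG replicate 6 and at −1.5 without BALBc replicate 3. Rps4l was at −0.30 without SKG replicate 6 and at −0.22 without BALBc replicate 3.

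Rpl22l1 is a paralog of Rpl22, an RNA-binding large subunit protein known to be needed for the development of alpha-beta T cells in mice. Its signals were 6.04, 6.07, 5.82, 5.87 and 6.19 in SKG, 9.70 and 9.74 in the BALBc mice of batch 2, and 5.83 in the BALBc mouse of batch 3. The BALBc value of batch 3 lay inside the SKG range, so the groups overlapped. The fitted difference was −0.83 (SE 0.61, adjusted p = 0.61), and within batch 3 it was 0.17. Rpl22 itself differed by −0.45 (SE 0.24).

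Rps3, which lies where the mRNA enters the small subunit, was measured by 2 kept probes. The dimmer probe had 10.18, 10.14, 8.85, 10.09 and 10.08 in SKG and 12.26, 12.05 and 10.65 in BALBc, a difference of −1.17 (SE 0.45, adjusted p = 0.284). The brighter one differed by −0.50 (SE 0.27, adjusted p = 0.467) and its groups overlapped. On the brighter probe BALBc replicate 3 was the highest of the 3 controls (12.98 against 12.43 and 12.48), while on the dimmer probe it was the lowest. In 10 genes more than 1 probe was kept, and in Rpl23, Rpl38, Rps24 and Rps9 the probes disagreed in the sign of the difference.

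The ranges of both strains were apart in 7 of the 64 member probes, all lower in SKG. Among all kept probes this held for 5.25% in that direction and for 15.3% in either. Besides Rps3a1, Rpl29 and Rps3 these included Rpl18, Rps19 and Rps21, which differed by −0.52, −0.21 and −0.31. None of the 7 was called. Rps19, the small subunit protein most often mutated in human Diamond-Blackfan anaemia, had 13.61, 13.49, 13.32, 13.37 and 13.61 in SKG against 13.70, 13.68 and 13.69 in BALBc. Under 75th percentile scaling 7 member probes did not overlap either (21.8% of all kept probes), but 6 of them were higher in SKG (18.8%) and 1, the dimmer Rps3 probe, was lower (2.94%).

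The 5 highest differences were those of Rpl21 (0.35, SE 0.24), Rpl24 (0.27, SE 0.34), Rpl23 (0.24, SE 0.26), Rps24 (0.21, SE 0.27) and Rpl38 (0.20, SE 0.26), none past the threshold. Rpl38 is a large subunit protein known in mice for its part in the translation of Hox mRNAs. It had 13.84, 13.91, 13.87, 13.76 and 13.77 in SKG, 12.80 and 12.74 in BALBc replicates 1 and 2, and 13.92 in BALBc replicate 3. With quantiles the SKG values and that of the BALBc mouse in the same batch thus lay close together, above those of batch 2. With the 75th percentile Rpl38 had 14.20, 14.42, 14.82, 14.02 and 14.08 in SKG, where replicate 6 was highest, and 12.18, 12.06 and 14.21 in BALBc. Rps24 and Rpl23, which binds the p53 regulator Mdm2, showed the same arrangement with quantiles: 13.70 to 13.83 for Rps24 in SKG, 13.84 in BALBc replicate 3, and 12.90 and 12.60 in batch 2. Within batch 3 the differences of Rpl38, Rps24 and Rpl23 were −0.09, −0.08 and −0.01. Rpl21 was dim on all arrays, between 4.84 and 5.55.

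**Figure D2:**
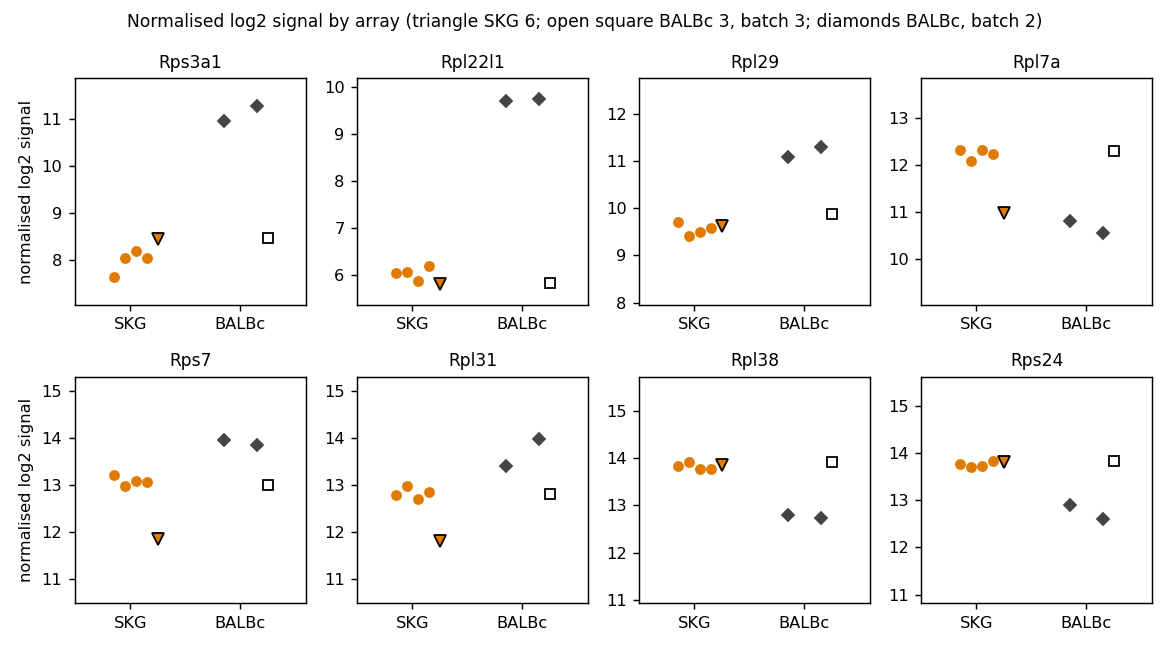
Normalised log2 signal (vertical axis, same span in every panel) of 8 ribosomal protein genes in SKG (circles, with replicate 6 as a triangle) and BALBc animals (diamonds for batch 2, an open square for replicate 3 in batch 3). Rps3a1, Rpl22l1 and Rpl29 are high and Rpl7a, Rpl38 and Rps24 low in batch 2, while the open square lies near the SKG circles in all 8 panels.

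The BALBc mice of batches 2 and 3 also differed in some members. The batch term of the fit with batch as a fixed block, added after the data were seen, was called higher in batch 2 in 6 member probes and lower in 7, against 11.5% and 12.3% of all kept probes, so these shares were near the background. That term sets BALBc replicate 3 alone against the batch 2 animals and assumes that it varies like the SKG animals, so batch and animal cannot be told apart. Under quantile normalisation batch 2 was over 1 log2 unit above batch 3 in 7 member probes and over 1 unit below in 5, against 12.8% and 13.4% of all kept probes. Rpl22l1 was 3.89 (SE 0.26, limma adjusted p = 5.52e-05) and Rps3a1 2.64 units higher in batch 2 (SE 0.34, limma adjusted p = 0.000494). Rpl7a, Rpl13a and Rpl38 were lower there, with log2 differences of −1.61, −1.36 and −1.15 (limma adjusted p = 0.0406, 0.00851 and 0.00717). Under 75th percentile scaling 5 member probes were over 1 unit higher in batch 2 (11.1% of all kept probes) and 30 of 64 were over 1 unit lower (24.6%). The batch term was then called higher in 5 (11.1%) and lower in 34 (25.9%), and the family's median was −0.998 there against −0.42 for all kept probes. The raw signals went the other way: the median member signal was 12020 and 10630 in batch 2 and 6180 in BALBc replicate 3, and the median over all probes was 187.5 and 163.0 against 103.7.

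With no batch term 3 member probes passed, those of Rpl29, Rps3a1 and the dimmer Rps3 probe, all lower in SKG, with 5.34% of all kept probes called, 2.04% lower and 3.3% higher. When batch entered as a fixed block, so that the difference rests on BALBc replicate 3, none passed (0.704% of all kept probes), and none passed within batch 3 alone (0.29%). Leaving out BALBc replicate 3 put each strain in a batch of its own, so that strain and batch cannot be told apart, and 20 member probes then passed (13 lower and 7 higher), against 38.1% of all kept probes (16.4% lower and 21.7% higher).

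Among the SKG animals, replicate 6 had the lowest median ribosomal protein signal with quantile normalisation. Its array also stood apart over all probes, with rank correlations of 0.93 to 0.943 with the other SKG arrays, whose highest were 0.976 to 0.981. The median deviation from each gene's mean over the 8 arrays was −0.29 for the large and −0.44 for the small subunit in replicate 6. In replicates 4, 5, 7 and 8 it was 0.022, 0.017, −0.014 and 0.056 for the large and 0.073, −0.065, −0.009 and 0.049 for the small subunit. Replicate 6 was the lowest SKG array in 39 of 64 member probes (60.9%), against 35% of all kept probes, and the highest in 12 (18.8%, against 34.8%). It was the lowest of all 8 arrays in 32 member probes (50%), against 18.9% of all kept probes. It lay over 0.5 log2 units under the mean of the other SKG animals in 22 probes and over 0.5 units above it in none, against 21% and 20.3% of all kept probes. Under 75th percentile scaling these counts were 17 and 7, against 14.4% and 28.1%, and replicate 6 was the lowest SKG array in 31 member probes (24.4% of all), the highest in 20 (48.8%) and the lowest of all 8 arrays in 11 (8.68%). Against the mean of the other SKG animals the median of the family was −0.30 with quantiles and −0.10 with the 75th percentile. For all kept probes it was −0.007 and 0.217. With quantiles the median was −0.31 for other mRNAs with a terminal oligopyrimidine tract, −0.32 for the mTOR list and −0.16 for mitochondrial ribosomal proteins. It went the other way for the 4 kept ribosomal proteins named outside the rule (0.23) and for the 31 kept genes of ribosome biogenesis (0.15). Of those 4 ribosomal proteins, Rpsa was dim on all arrays, between 4.26 and 4.83. Whether the low values were particular to this family was not tested. The raw median member signal was 2859 in replicate 6 and 5736 to 6454 in the other SKG animals.

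**Figure D3:**
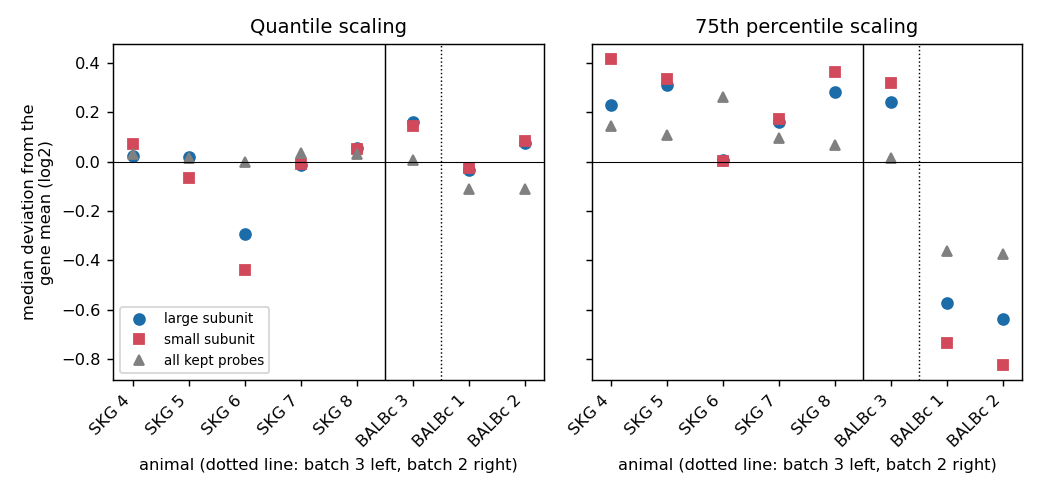
Median deviation from the gene mean over 8 arrays (log2, vertical axis) for large subunit genes (blue circles), small subunit genes (red squares) and all kept probes (grey triangles), by animal. In the left panel SKG replicate 6 is lowest (−0.29 and −0.44), and in the right panel BALBc replicates 1 and 2 are lowest, at −0.57 to −0.82 for the subunits and below the grey triangles.

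The low values of replicate 6 were uneven across the family. Against the mean of the other SKG animals Rps4l, Rpl7a and Rps7 were lowest, with log2 differences of −1.38, −1.25 and −1.23. Rpl7a, a large subunit protein, had 12.31, 12.09, 12.31 and 12.24 in replicates 4, 5, 7 and 8 and 10.98 in replicate 6. Rps7, a small subunit protein mutated in some human Diamond-Blackfan anaemia, had 13.21, 12.97, 13.08 and 13.06 in those animals and 11.85 in replicate 6. Each of these values of replicate 6 stood clear of the 4 others. Rps6, the target of S6 kinase, differed by −1.01, Rpl31 by −1.01 (−0.19 on its other probe), Rps2 by −0.99, Rpl18 by −0.88 and Rpl24 by −0.86.

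Other members did not share this with quantile normalisation. Rps14, the small subunit protein lost in the human 5q- syndrome, had 13.45, 13.54, 13.55, 13.51 and 13.47 in SKG replicates 4 to 8, an SD of 0.041. The brightest probes of Rps24 and Rpl38 had SDs of 0.054 and 0.064. Their SKG values spread wider with the 75th percentile, from 13.98 to 14.75 and from 14.02 to 14.82. With the 75th percentile replicate 6 lay above the mean of the other SKG animals in both (0.65 and 0.64), in Rpl23 (0.73) and in Rps14 (0.38). Probes of a gene also differed: on a dimmer probe of Rpl23 replicate 6 was lower by a log2 difference of −1.11, and the dimmer probe of Rpl38 had an SD of 0.35. With quantiles replicate 6 was higher than that mean in Rps15a (0.48), Rps3a1 (0.46), Rpl41 (0.30) and Rpl3 (0.27). The median SD over the SKG animals was 0.17 for the large and 0.27 for the small subunit, and 0.125 and 0.113 without replicate 6, against 0.29 and 0.20 for all kept probes. A run of C and T of at least 7 bases at the start was found in 7 of 14 genes in which replicate 6 was over 0.5 units lower and in 12 of 28 others. CGGAAG was found in 12 of 14 and 19 of 28, and ATGGCG in 1 of 14 and 11 of 28.

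**Figure D4:**
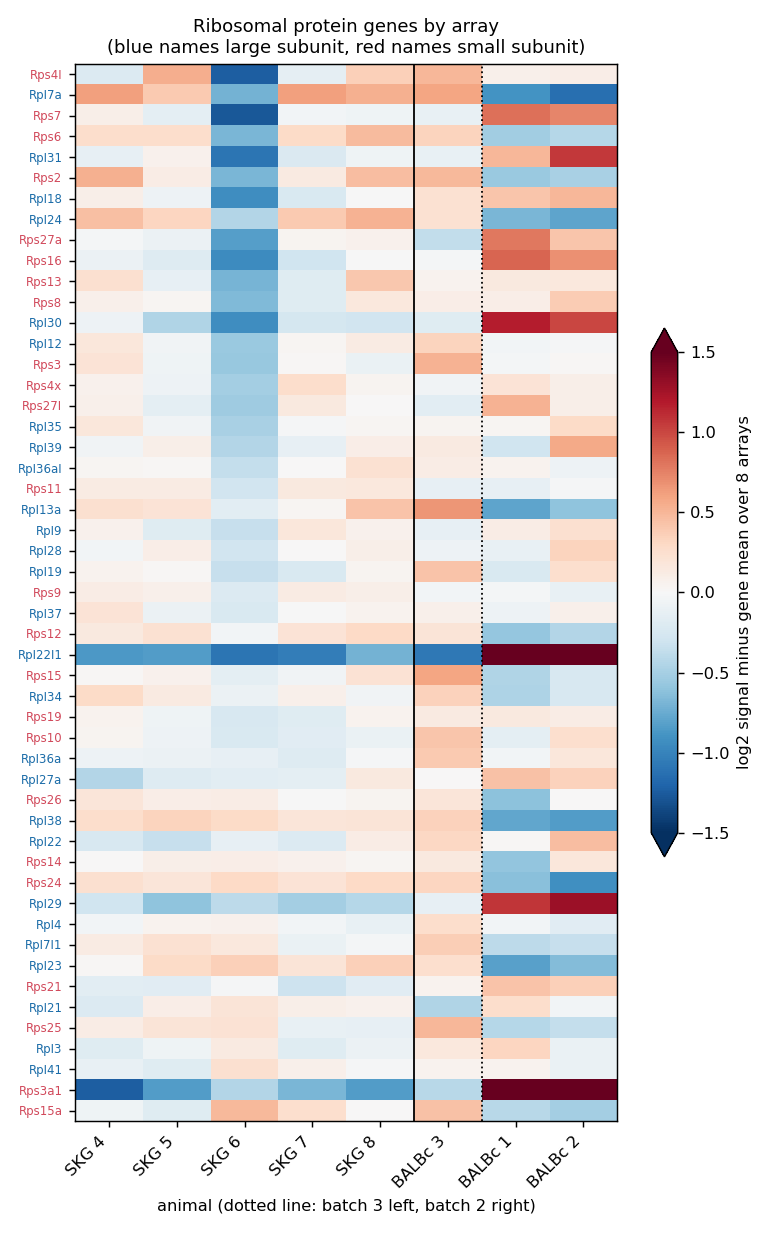
Log2 signal minus the gene's mean over 8 arrays (colour, blue low and red high, capped at 1.5) for 51 of the 52 ribosomal protein genes (rows, by the deviation of SKG replicate 6 from the other SKG animals) in 8 animals (columns). The column of SKG replicate 6 runs from blue at the top to pale or red at the bottom, with a few exceptions, and the columns of BALBc 1 and 2 hold strong red and blue rows such as Rpl22l1, Rps3a1 and Rpl7a.

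Paralogs and relatives gave no call. Rpl36al, a close copy of Rpl36a, differed by −0.09 (SE 0.24) and Rpl7l1, a relative of Rpl7 with a part in ribosome assembly, by −0.10 (SE 0.24). Rps27l, a paralog of Rps27 that p53 induces, had 13.32, 13.10, 12.71, 13.38 and 13.25 in SKG and 13.77, 13.33 and 13.08 in BALBc. Its difference was −0.05 (SE 0.28) with quantiles and 0.58 (adjusted p = 0.346) with the 75th percentile, where its groups did not overlap. Rps7 (−0.41 and 0.26) and Rpl31 (−0.40 and 0.23) also moved most between the scalings, while Rps4l (−0.53 and −0.52), Rps19bp1 (0.18 and 0.24) and Rpl21 moved least.

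Other genes of the pathway were read from lists. Of ribosomal proteins named outside the rule 4 were kept, all lower in SKG with quantiles, 2 lower and 2 higher with the 75th percentile, and none called. The smallest p-values were those of Rack1, a scaffold on the small subunit (−1.02, SE 0.50), and Rplp0, a protein of the large subunit stalk (−0.27, SE 0.31). Of 17 other mRNAs with a terminal oligopyrimidine tract 11 were lower, 6 higher and none called, with a median of −0.105 with quantiles and 0.30 with the 75th percentile. Among them Naca, a subunit of the nascent polypeptide complex, had the smallest p (−0.75, SE 0.22, adjusted p = 0.182), followed by the histone chaperone gene Nap1l1 (−0.50, SE 0.23). For ribosome biogenesis 20 of 31 genes were lower, with a median of −0.19 and −0.05 under the 2 scalings. Sbds, which helps release a maturation factor from the large subunit, had log2 signals of 10.70, 10.85, 10.46, 10.90 and 10.70 in SKG replicates 4 to 8 and of 9.76, 9.85 and 9.93 in the 3 BALBc mice, with no overlap. The fitted difference, 0.83 (SE 0.22), missed the threshold (adjusted p = 0.132), while 75th percentile scaling gave 1.15 (adjusted p = 0.0467), the 1 call in the list. Gar1 of the H/ACA ribonucleoproteins differed by −0.59 (SE 0.25).

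In the list of mTOR and its control of these mRNAs 8 of 12 genes were higher and none was called. Akt1s1, an inhibitory subunit of mTOR complex 1, differed by 0.96 (SE 0.25, adjusted p = 0.122) and Mtor, the kinase itself, by 0.72 (SE 0.36). Of 68 genes for mitochondrial ribosomal proteins 35 were higher and 33 lower, with a median of 0.018 and of 0.246 under 75th percentile scaling. None was called. Mrpl52 (−1.06, SE 0.33) and Mrps28 (−0.70, SE 0.24) had the smallest p-values.

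The tissue and its cells were checked by marker lists. Of 9 ileal epithelium markers on the array 7 were kept, among them Fabp6, the ileal bile acid binding protein, and Vil1, while Fabp2 and Slc10a2 were not above background on any array. Their summed linear signal was 45500 to 52600 in SKG and 34100 to 43400 in BALBc, with none called under quantile normalisation and 1 with the 75th percentile. In these pieces of whole tissue, fewer cells of a type and less RNA per cell cannot be told apart. T cell markers were lower in SKG in all 9 kept genes (2 called, Cd6 and Cd8b1), with a summed linear signal of 371 to 788 in SKG and 1050 to 2340 in BALBc and with Cd8a above background on no array. Crypt proliferation markers were lower in all 7 genes with quantiles and in 6 with the 75th percentile (none called). Their median difference was −0.65 with quantiles and −0.33 with batch as a fixed block, where Olfm4 was higher (0.37). Their sums were 1460 to 2030 in SKG, 3490 to 3780 in the BALBc mice of batch 2 and 3060 in BALBc replicate 3. All 6 smooth muscle markers (5 with the 75th percentile) and 5 of 6 macrophage markers were lower and none was called. Of 8 pancreas markers 1 was kept, Cela1, which was called higher in SKG (1.42, limma adjusted p = 0.0205). The summed T cell signal was 788 in SKG replicate 6 and 371 to 672 in the other SKG animals, the B cell signal 891 against 263 to 426, and the crypt proliferation signal 1460 against 1710 to 2030. The part of these cells in the ribosomal protein values was not tested.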

How the data were processed

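The members, gene lists and tests were chosen with earlier results of these data known. Each file holds 1 array as GenomeStudio 1.9.0 wrote it with no normalisation, per the file headers, and the deposited signal is an intensity, averaged over the beads of a probe. The deposited values named Detection lie between 0 and 1, and this fraction was read as 1 minus the detection p. Bead SDs and bead numbers, deposited in further columns, gave the bead error. A further table from the authors, whose values follow a log2 scale, lists 5045 probes, 35 of them members. The centring, direction and filter of that table are not given in the sources used here, so it served as an alternative. Larger values were read as more signal, and on that reading 24 members were lower and 11 higher in SKG. The median of that table per array ran from 0.0196 to 0.0703 in SKG and from 0.00801 to 0.186 in BALBc. The submitters' processing notes also name limma, without saying for which step. 1 kept gene is left out of the plots that show single genes.

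Groups, replicate numbers and batches came from the sample descriptions, and each array is a separate mouse per the labels' protocols. No 2 arrays held identical signals. Signals were corrected with normexp from detection p (offset 16), then quantile normalised on a log2 scale (limma 3.58.1, R 4.3.3, statmod 1.5.0). SKG was compared with BALBc on 8 arrays by limma with batch as a random block (consensus correlation 0.544), two-sided, with Benjamini-Hochberg adjustment over 13775 kept probes. The second scaling subtracted each array's 75th percentile of log2 signal after the same correction. Differences are fitted values, which weigh the batches, and not differences of group means. The fit was tested on simulated data, with batch effects scaled to each probe's spread over the SKG arrays. Batch steps as large as that of Rpl22l1 were thus not covered. Named members were those past the threshold, the 5 highest and 5 lowest differences, the 3 widest and 3 narrowest SDs over SKG, the 3 moving most and the 3 moving least between scalings, and all paralogs. Other members given with values, such as Rps3, Rps6, Rps19 and Rpl13a, were chosen after their values were seen. In each pathway list the 2 genes with the smallest p are named, while marker lists are given by counts and sums. Of 18138 names, 14309 matched a RefSeq symbol (GRCm38.p6) and 2886 an older name. Promoters are from RefSeq, and 42 of 52 genes had one.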

Additional observations from a re-analysis of the deposited data

Results flagged for a closer look

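In the group of 5 SKG animals the gap between replicate 6 and its nearest neighbour took up more than 0.71 of the whole range in 5 of the 18 named genes and in the median of each subunit. Chance gives such a gap in about 1 of 20 groups, and 20 groups were examined. That rate does not apply to Rpl7a, Rps19bp1 and Rps4l, which were named for their wide SD over the same 5 arrays. Nor does it apply to Rps14, Rps24 and Rpl38, which were named for a narrow SD. Other named genes, such as Rps7 and Rpl31, were chosen by differences that also use these arrays. The 7 values share 1 array, so they are not independent. Replicate 6 was low in each: 11.78 for Rpl24, 11.82 for Rpl31, 10.98 for Rpl7a, 11.85 for Rps7 and 4.83 for Rps19bp1 (normalised log2 signal), and −0.29 and −0.44 for the median deviation of the large and the small subunit. Whether the animal, its tissue piece or its array lies behind these values was not tested.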

How the results depend on the processing

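No member passed under quantile or 75th percentile scaling, without background correction, with either filter on dim probes, with batch as a fixed block, within batch 3 or in the authors' deposited table. With no batch term 3 members and 735 of all probes passed. Counts of all probes, 84 as reported (48 higher, 36 lower), were 147 with 75th percentile scaling (102 higher, 45 lower), 40 within batch 3, and 1496 with 75th percentile scaling without SKG replicate 6. Leaving out 1 animal at a time gave 0 to 20 member calls and 24 to 5156 calls over all probes. The highest, 5156 and 863, came without BALBc replicate 3 and without SKG replicate 6. Without SKG replicates 4, 5, 7 and 8 there were 31, 43, 32 and 44, and without BALBc replicates 1 and 2 there were 40 and 24. Without BALBc replicate 3 the fit had no batch term, since strain and batch cannot then be told apart. The median difference of the large subunit ran from −0.188 to −0.107 and that of the small subunit from −0.216 to −0.053 with 1 animal left out. With 75th percentile scaling they were 0.203 and 0.184, and 0.11 and 0.174 also without SKG replicate 6. With that scaling and batch as a fixed block, or within batch 3, the large subunit was at 0.028, against 0.124 for all kept probes. These combinations with 75th percentile scaling were chosen after seeing the data. The gap between the subunits ran from −0.072 to 0.047 with 1 animal left out, and was 0.071 with no batch term and −0.203 in the authors' deposited table. Of the 18 named genes, the following changed sign. With 75th percentile scaling Rpl31 was at 0.233, Rpl36al at 0.303, Rpl7l1 at 0.029, Rps27l at 0.578 and Rps7 at 0.259. With batch as a fixed block or within batch 3 Rpl22l1 was at 0.169, Rpl23 at −0.012, Rpl38 at −0.092, Rpl7a at −0.308, Rps14 at −0.089, Rps24 at −0.075 and Rps27l at 0.074. With both choices Rpl22l1 was at 0.135, Rpl30 at 0.007, Rpl31 at 0.193, Rpl36al at 0.228, Rps27l at 0.468 and Rps7 at 0.189. With 75th percentile scaling without SKG replicate 6 Rpl30 was at 0.037, Rpl31 at 0.395, Rpl36al at 0.317, Rps27l at 0.619 and Rps7 at 0.465. Rpl7l1 was at 0.032 with no filter and 0.2 with no batch term, Rps14 at −0.012 over probes above background on all 8 arrays, and Rps7 at 0.006 in the authors' deposited table. With 1 animal left out Rpl21 ran from −0.065 to 0.43, Rpl36al from −0.155 to 0.001, Rpl7l1 from −0.2 to 0.45, Rps14 from −0.106 to 0.25 and Rps27l from −0.372 to 0.113. The causes were not tested. Named genes gained a call 13 times, 11 of them without BALBc replicate 3 and 2 with no batch term. No paired analysis was possible because the animals are separate mice and the labels give no pairs of SKG and BALBc animals. Dim probes such as those of Rpl21 lie close to background.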
